A study of Mus musculus with 8 samples.

Results

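The levels of 10 immediate early genes were followed through 16 mouse mammary tumours, on arrays that gave 14125 genes to test in all. They were the nuclear receptor genes Nr4a1, Nr4a2 and Nr4a3, the AP-1 genes Fos, Fosb, Jun and Junb, and Egr1, Egr2 and Ier2. The genes were chosen by name and found on the array through the RefSeq accessions of its probes, with control spots left out. Of the 10, 9 passed the filter on dim probes, which kept a probe only if some group had it well above background in all its tumours. Nr4a3 did not pass.

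The tumours were MMTV-PyMT carcinomas, in which the mouse mammary tumour virus promoter drives the polyoma middle T oncogene in mammary epithelium. All grew from tumour pieces transplanted orthotopically into wild-type FVB hosts, so the stroma can stem from the host, and RNA came from fragments of whole tumour. RANK-Fc, a soluble decoy that captures RANK ligand, was given into the peritoneum at 10 mg/kg, 3 times per week. The 6 groups were untreated passage 1 tumours (2), RANK-Fc in passage 1 (3), untreated passage 2 tumours (2), passage 2 tumours treated only in that passage (current RANK-Fc, 3), passage 2 tumours treated only before (prior RANK-Fc, 3), and passage 2 tumours treated both before and in that passage (prior and current RANK-Fc, 3). The labels write neoadjuvant and adjuvant, and taking the first as treatment in passage 1 is a reading of the group codes. Every tumour carried an animal code of its own. The labels give neither the age of the mice nor the injection the controls received, nor the line of descent between passages.

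Immediate early genes are transcribed within minutes of a growth factor, stress or calcium signal, without new protein synthesis, mainly through the factors SRF and CREB that are already bound at their promoters. FOS and JUN proteins pair to form AP-1, EGR proteins are zinc finger factors, and the NR4A proteins are orphan nuclear receptors that bind DNA without a known classical ligand. Because these RNAs are short lived, cutting and handling tissue can induce them too, and in mammary tumours they report signalling downstream of receptor tyrosine kinases and RAS.

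RefSeq promoter windows were found for 8 of the 10 genes (assembly GRCm38.p6). The 250 bases before the start site are shown for Nr4a1 and Nr4a2, whose levels moved together across groups, and for Fos, which did not follow them. Capitals mark the CREB half-site TGACG or its reverse complement and, in Nr4a1, the EGR site GCGGGGGCG in reverse complement. The windows lie at chr15:101266596-101266845 (plus strand), chr2:57124004-57124253 (minus strand) and chr12:85473640-85473889 (plus strand), each written 5′ to 3′ along its gene.
Nr4a1: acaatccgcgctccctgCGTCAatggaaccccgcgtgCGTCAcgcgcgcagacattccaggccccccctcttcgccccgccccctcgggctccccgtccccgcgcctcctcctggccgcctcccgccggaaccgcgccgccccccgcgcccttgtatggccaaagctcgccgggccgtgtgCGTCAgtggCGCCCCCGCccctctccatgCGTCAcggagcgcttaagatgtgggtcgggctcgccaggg
Nr4a2: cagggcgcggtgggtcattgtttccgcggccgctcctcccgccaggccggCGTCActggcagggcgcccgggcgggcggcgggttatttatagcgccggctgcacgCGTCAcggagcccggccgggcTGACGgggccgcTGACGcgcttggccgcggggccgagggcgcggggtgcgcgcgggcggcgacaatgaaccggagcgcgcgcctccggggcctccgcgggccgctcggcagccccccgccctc
Fos: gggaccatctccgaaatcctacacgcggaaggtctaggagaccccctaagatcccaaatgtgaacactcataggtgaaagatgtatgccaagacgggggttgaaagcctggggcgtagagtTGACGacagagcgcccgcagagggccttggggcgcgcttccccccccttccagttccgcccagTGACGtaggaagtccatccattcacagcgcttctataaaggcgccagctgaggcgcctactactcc

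That half-site occurred 4 times in the Nr4a1 window, 4 times in that of Nr4a2 and 4 times in that of Nr4a3. In the Fos window it occurred 2 times, starting at positions -129 and -66 counted back from the start site. The Fosb and Junb windows held 1 match each, Jun held 0, and the 5 alternative Egr2 windows held 0 to 2. Both strands were searched in 32851 windows of the same length, of which 17.8% held the half-site at least once, 3.9% at least 2 times and 0.137% at least 4 times. The full CRE TGACGTCA, which contains the half-site, was in 1.55% of windows, the AP-1 site TGAGTCA in 4.46% and the NR4A site NBRE, AAAGGTCA, in 1.34%, and none of these was found in a window of the 8 genes. The EGR site was in 2.57% of windows and, among the 8 genes, in those of Nr4a1 (position -60) and Fosb (position -50). The CArG box, bound by SRF, was in 1.47% of windows and in 4 of the 5 of Egr2, some of which overlap and share the same box. Bases further upstream were not searched, and Egr1 and Ier2 had no window. These matches describe letters in a window and were not tied to binding in these tumours.

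Each array gave a tumour in each of its 2 colours. Between 47.5% and 56.5% of the spots of a channel lay well above background and no spot was saturated. Log2 intensities correlated across genes at a median of 0.986 between tumours of a group on different arrays and 0.979 between groups. The number of arrays limits the precision, and p-values measure the spread between these tumours. All 9 epithelial markers checked (Krt8, Krt18, Krt19, Epcam, Cdh1, Cldn3, Cldn7, Elf5 and Ehf) were well above background in every channel, and their summed log2 level lay between 16.92 and 17.29 in every tumour. The sum is weighted to the brightest marker, Krt18 (mean log2 16.02), and can hide changes of single markers. Elf5 was higher in passage 2 without prior RANK-Fc than in passage 1 (0.57 ± 0.14, limma adjusted p = 0.0212), where 12.0% of all genes were called. Other epithelial markers went both ways there without a call. Ehf (-0.25 ± 0.091) and Epcam (-0.25 ± 0.11) were lower, and Cdh1 (0.15 ± 0.077), Cldn3 (0.09 ± 0.12) and Cldn7 (0.08 ± 0.099) higher. In such whole-tumour RNA, fewer cells of a type and less RNA per cell cannot be told apart. Replicate 3 of the passage 2 tumours with current RANK-Fc stood apart in fibroblast markers (summed log2 level 17.47, against 14.28 to 16.55 in the other 15 tumours).

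Nr4a1, which encodes the orphan receptor NUR77, was the member whose level differed most between groups. It was high in passage 1, low in the 5 passage 2 tumours without prior RANK-Fc, and between or at the passage 1 level in the 6 with prior RANK-Fc. The passage 1 controls were at log2 intensities of 12.07 and 12.78 and the passage 1 RANK-Fc tumours at 12.56, 12.79 and 12.87. The passage 2 controls were at 10.83 and 11.12, and the tumours with current RANK-Fc alone at 11.59, 11.23 and 11.72. With prior RANK-Fc alone the values were 11.99, 12.08 and 12.11, and with prior and current RANK-Fc 11.67, 12.12 and 13.06. All 5 passage 1 tumours therefore lay above all 5 passage 2 tumours without prior treatment. Of the 6 tumours with prior treatment, 5 lay above all of the untreated or currently treated ones, and the lowest, at 11.67, fell just under the highest of them, at 11.72.

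By group mean the order was passage 1 RANK-Fc (12.74 ± 0.16, SD, n = 3), passage 1 control (12.42 ± 0.51, n = 2), prior and current RANK-Fc (12.29 ± 0.71, n = 3), prior RANK-Fc (12.06 ± 0.06, n = 3), current RANK-Fc (11.51 ± 0.25, n = 3) and passage 2 control (10.97 ± 0.21, n = 2). Neighbours among the first 4 groups in that order overlapped. The prior group did not overlap with the current group, nor the current group with the passage 2 controls.

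**Figure D1:**
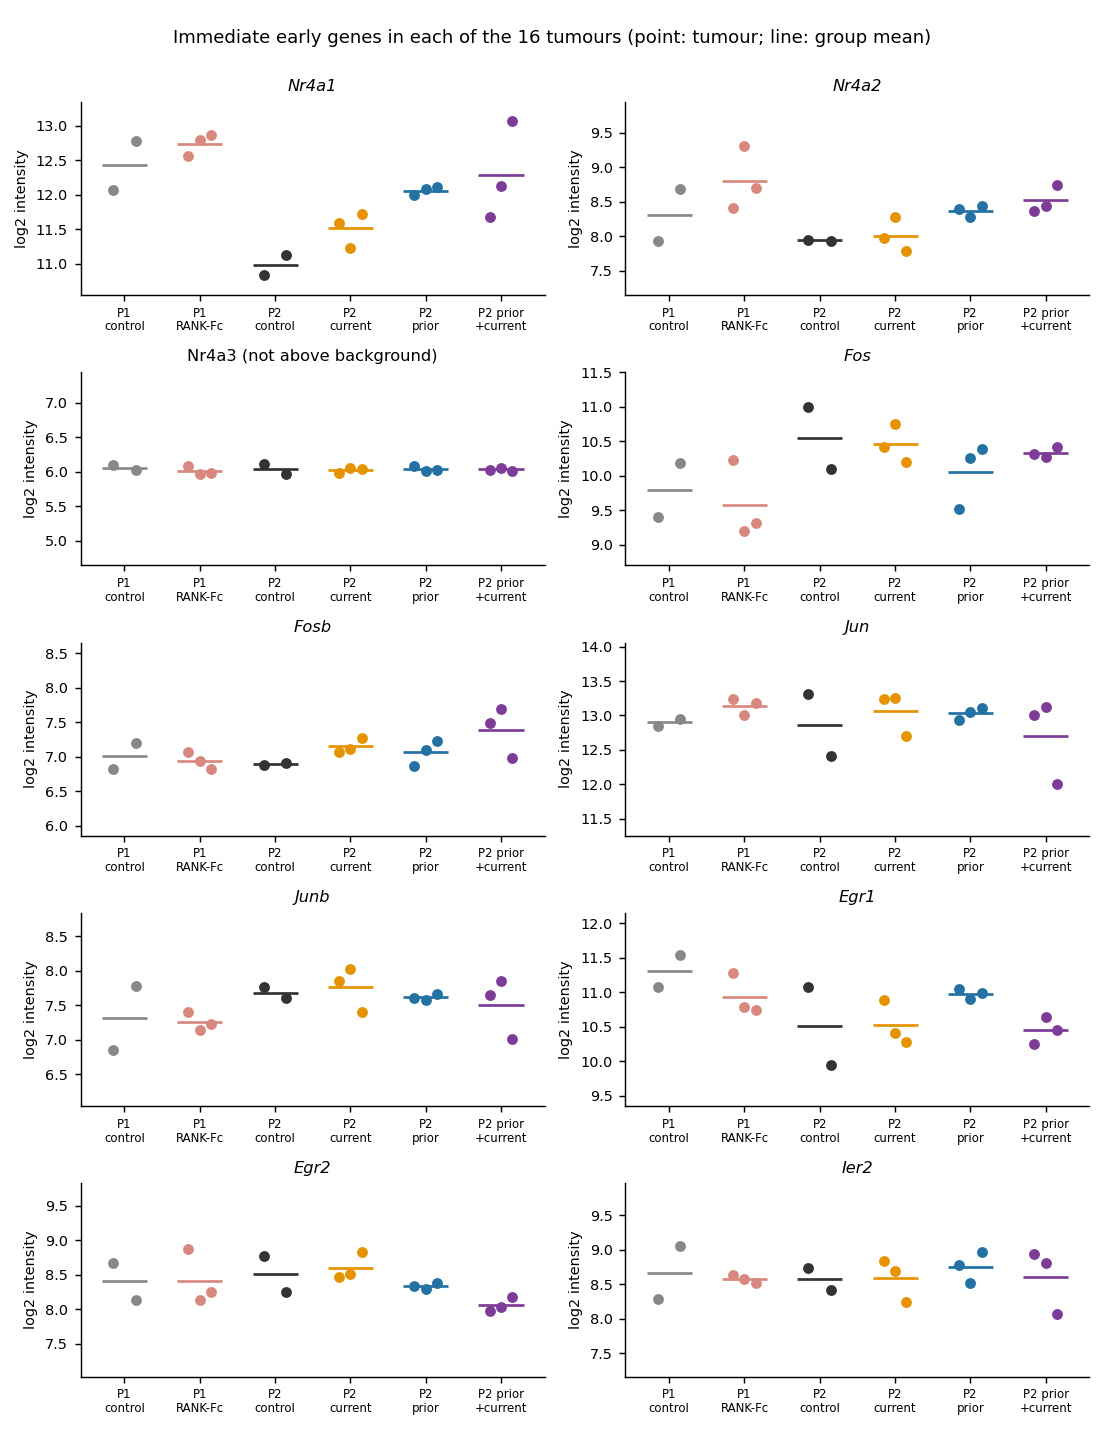
Log2 intensity of each of the 10 genes (y axis, each panel spanning 2.8 log2 units) in the 6 groups (x axis, P1 and P2 for passages 1 and 2), with a point per tumour and a line at the group mean. Nr4a1 ranges from 10.83 to 13.06 and separates passage 1 from passage 2 without prior RANK-Fc, while Junb and Ier2 overlap between groups next to each other in the order of their means and Nr4a3 lies between 5.97 and 6.12.

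The question of whether tumours changed between passages was put by comparing passage 2 with passage 1. Nr4a1 was lower in the passage 2 controls than in the passage 1 controls by a log2 difference of -1.48 ± 0.24 (SE, 2.78-fold; limma, adjusted p = 0.0095). In this comparison 3.31% of all 14125 genes were called, and Nr4a1 was the only member called among the 9 tested. Averaged over control and current RANK-Fc tumours, the passage difference of Nr4a1 was -1.36 ± 0.16 (limma, adjusted p = 0.000345). Here 12.0% of all genes were called and 8.25% lay lower in passage 2 without overlap of tumours. Nr4a1 was the only member that lay lower without overlap, and 5.65% of all genes lay higher without overlap, among them none of the members. The call between controls ended without passage 1 control replicate 2 (-1.28, adjusted p = 0.081), as it did with replicate 2 of the passage 2 controls left out (-1.32, adjusted p = 0.179), with no dye term (-1.48, 0.0515) and with log ratios alone (-1.62, 0.392). The limma adjusted p ranged from 0.00732 to 0.392 over 17 alternatives. Without the tumour that stood apart in fibroblast markers the averaged difference was -1.37 (limma, adjusted p = 0.000835). The averaged passage difference stayed past the threshold in 22 of 23 alternatives, with limma adjusted p from 0.000247 to 0.155.

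Prior RANK-Fc was compared with no prior RANK-Fc in passage 2, to ask whether treatment before transplantation left a mark. The labels give no line of descent, so prior treatment and the parent tumour cannot be told apart. Averaged over both backgrounds, Nr4a1 was higher with prior RANK-Fc by 1.01 ± 0.15 (log2, 2.01-fold; limma, adjusted p = 0.0157), and 0.368% of all genes were called. It was the only member called. Against the passage 2 controls, the tumours with prior RANK-Fc alone were higher by 1.11 ± 0.21 (adjusted p = 0.132), a comparison in which 0.00708% of genes were called. Those with prior and current RANK-Fc were higher by 1.34 ± 0.22 (adjusted p = 0.0551), where 0.0779% of genes were called, and higher than with current RANK-Fc alone by 0.91 ± 0.20 (adjusted p = 0.0862), where 0.149% were called. Without overlap of tumours, 12.1% of all genes lay higher with prior RANK-Fc alone than in controls, and Nr4a1 and Nr4a2 were the members among them. The averaged comparison and the passage comparison share the same 5 passage 2 tumours without prior RANK-Fc, so the 2 are not independent.

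Without the tumour that stood apart in fibroblast markers the averaged difference was 1.02 (limma, adjusted p = 0.0481), and without the tumour with the highest value, at 13.06, it was 0.85 (limma, adjusted p = 0.0176). The averaged call ended without either passage 2 control (replicate 1: 1.11, adjusted p = 0.071; replicate 2: 0.95, adjusted p = 0.075), without the dye term (0.86, adjusted p = 0.194), with the log ratios of the arrays alone (0.88, 0.521) and when only the compared groups were fitted (1.00, 0.106), with limma adjusted p from 0.00274 to 0.521 over 24 alternatives. Without replicate 1 of the prior and current group, that group's difference from the controls became 1.56 (limma, adjusted p = 0.0107) and its difference from current RANK-Fc alone 1.10 (limma, adjusted p = 0.0289). Nr4a1 also read lower in Cy5 than in Cy3 by 0.47 log2 units in the fit (coefficient -0.47, the member with the largest dye term in size). In an exact two-sided permutation test over the 11 passage 2 tumours, the 6 with prior RANK-Fc had a mean Nr4a1 level 0.88 higher than the 5 without (12.17 against 11.30, p = 0.00649, of 462 splits). This test took no account of dye, shared arrays or current RANK-Fc. It was run on each of the 9 tested genes without adjustment, and the genes were chosen with results known, so its p is descriptive. Within tumours without current RANK-Fc the difference was 1.09 (exact permutation p = 0.1) and within those with it 0.77 (exact permutation p = 0.2), where 0.1 is the smallest p these group sizes allow.

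No difference of Nr4a1 between tumours with and without current RANK-Fc passed the adjusted test. The difference was 0.19 ± 0.21 in passage 1 (limma, adjusted p = 0.999) and 0.43 ± 0.21 in passage 2 without prior treatment (limma, adjusted p = 1). It was 0.23 ± 0.19 in passage 2 with prior treatment (adjusted p = 0.745). Averaged over the 3 backgrounds it was 0.29 ± 0.12 (unadjusted p = 0.0344, limma adjusted p = 0.708). The interaction term between both treatments was -0.20 ± 0.28 (adjusted p = 0.918). In all 5 of these comparisons limma called 0% of the genes. At an unadjusted p under 0.05, the counts of all genes higher and lower were 101 and 128 in passage 1, 366 and 194 in passage 2 without prior treatment and 648 and 758 with it, 485 and 465 averaged, and 323 and 639 for the interaction.

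Nr4a2, encoding the related receptor NURR1, followed a similar order at a smaller size. The passage 1 controls were at 7.94 and 8.69, and the passage 1 RANK-Fc tumours at 8.41, 9.31 and 8.70. The passage 2 controls were at 7.95 and 7.94, and those with current RANK-Fc at 7.97, 8.28 and 7.79. The tumours with prior RANK-Fc were at 8.40, 8.28 and 8.44, and those with prior and current RANK-Fc at 8.38, 8.44 and 8.74. The tumours of the group with prior RANK-Fc met those with current RANK-Fc only at 8.28, and the passage 1 controls lay on both sides of the prior RANK-Fc tumours.

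Nr4a2 was lower in passage 2 without prior RANK-Fc than in passage 1 by a log2 difference of -0.60 ± 0.18 (limma, adjusted p = 0.0428). That call ended with the other Nr4a2 probe (-0.55, adjusted p = 0.0521) and without any of 7 tumours of the 10 left out in turn (passage 1 control replicate 2, passage 1 RANK-Fc replicates 2 and 3, both passage 2 controls, current RANK-Fc replicates 1 and 3), with limma adjusted p from 0.0189 to 0.354 over 24 alternatives. With prior RANK-Fc, averaged over both backgrounds, it was higher by 0.47 ± 0.17, which did not pass (unadjusted p = 0.0145, limma adjusted p = 0.209). At that unadjusted threshold 15.6% of all genes were called. The exact permutation test over the 11 passage 2 tumours, not adjusted over the tested genes, gave 0.46 (8.45 against 7.99, p = 0.00433), with 0.00216 the smallest p it can give. Between the passage controls the difference was -0.42 ± 0.27 (limma, adjusted p = 0.512).

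Nr4a3, which encodes NOR1, was not well above background on the mean of its spots in any channel. It was printed on 10 spots per array, and 9 of its 160 spots over all channels were well above background. Its log2 intensity lay between 5.97 and 6.12 in all 16 tumours, so no difference was tested.

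Fos, the founding member of the AP-1 family, was measured on 10 spots per array and so with a small technical error. The SD over spots within a channel was 0.066 to 0.14, against an SD over tumours of 0.51. Its log2 intensities were 9.40 and 10.19 in the passage 1 controls and 10.22, 9.20 and 9.32 with RANK-Fc in passage 1. They were 11 and 10.10 in the passage 2 controls and 10.42, 10.75 and 10.20 with current RANK-Fc. With prior RANK-Fc they were 9.52, 10.26 and 10.40, and with prior and current RANK-Fc 10.31, 10.27 and 10.42. The tumours at 9.40, 9.20 and 9.32 lay below every passage 2 tumour, and the other passage 1 tumours overlapped with passage 2.

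Fos was thus higher in passage 2 without prior RANK-Fc than in passage 1 by 0.73 ± 0.25, which did not pass (unadjusted p = 0.0117, limma adjusted p = 0.0775), and 26.6% of all genes were at an unadjusted p under 0.05 there. It did pass without passage 1 control replicate 2 (1.03, limma adjusted p = 0.0291) and without passage 1 RANK-Fc replicate 1 (0.89, limma adjusted p = 0.0495). With prior RANK-Fc the averaged difference was -0.36 ± 0.23 (limma, adjusted p = 0.481), and the exact permutation test over passage 2 gave -0.30 (p = 0.236). With current RANK-Fc the averaged difference was 0.04 ± 0.18 (limma, adjusted p = 0.988).

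Fosb, another partner of JUN, was the dimmest of the tested members, between 6.82 and 7.69. Its passage 2 controls were at 6.87 and 6.91. The 3 tumours with current RANK-Fc were at 7.07, 7.12 and 7.28, and those with prior and current RANK-Fc at 7.48, 7.69 and 6.98. Those last tumours exceeded the controls by 0.44 ± 0.19 (unadjusted p = 0.0355, limma adjusted p = 0.502), in a comparison where 9.05% of all genes were at an unadjusted p under 0.05. The passage difference was 0.01 ± 0.14 and that with prior RANK-Fc 0.19 ± 0.13.

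Jun, which pairs with FOS proteins or itself, ranged from 12.00 to 13.31. It was at 12.85 and 12.95 in passage 1 controls, at 13.24, 13.01 and 13.18 with RANK-Fc there, and at 13.31 and 12.41 in passage 2 controls. It was at 13.24, 13.26 and 12.71 with current, at 12.93, 13.05 and 13.11 with prior, and at 13.00, 13.12 and 12.00 with prior and current RANK-Fc. In passage 1 the difference with RANK-Fc was 0.35 ± 0.25 (limma, adjusted p = 0.999), and groups next to each other in the order of means overlapped. The differences were -0.05 ± 0.19 by passage (adjusted p = 0.890) and -0.17 ± 0.18 by prior RANK-Fc (limma, adjusted p = 0.684). The tumour at 12.00 was the same replicate 3 of the prior and current group that had the highest Nr4a1 value of all. It also had the lowest Ier2 value (8.08) and the lowest Junb value in passage 2 (7.01).

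Junb, an AP-1 subunit that can oppose JUN, lay between 6.85 and 8.03. It was at 6.85 and 7.78 in passage 1 controls and at 7.14 to 7.41 with RANK-Fc there. It was at 7.76 and 7.61 in passage 2 controls, 7.41 to 8.03 with current, 7.57 to 7.67 with prior, and 7.01 to 7.85 with prior and current RANK-Fc. The passage difference of 0.40 ± 0.20 did not pass (limma, adjusted p = 0.221). It became 0.74 without passage 1 control replicate 2 (limma, adjusted p = 0.0146). The difference with prior RANK-Fc was -0.17 ± 0.19 (limma, adjusted p = 0.705).

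Egr1, the EGR factor most widely used as a readout of ERK signalling, was at 11.08 and 11.55 in passage 1 controls and at 11.27, 10.79 and 10.74 with RANK-Fc there. The passage 2 controls were at 11.07 and 9.95, and the tumours with current RANK-Fc at 10.89, 10.41 and 10.29. Prior RANK-Fc gave 11.05, 10.91 and 10.98, and prior and current RANK-Fc 10.25, 10.64 and 10.45. The lower passage 1 control, at 11.08, was close to the highest passage 2 values, at 11.07 and 11.05, and the passage 1 RANK-Fc tumours overlapped with passage 2.

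The passage difference between controls for Egr1 was -0.83 ± 0.30 (unadjusted p = 0.0172, limma adjusted p = 0.190), in a comparison where 15.5% of all genes had an unadjusted p under 0.05. The averaged passage difference was -0.61 ± 0.20 (unadjusted p = 0.00959, limma adjusted p = 0.0683), and neither passed. The averaged value passed under median centring (-0.70, limma adjusted p = 0.0495) and without passage 1 control replicate 1 (-0.79, 0.0417), passage 2 control replicate 1 (-0.91, 0.0135) or current RANK-Fc replicate 1 (-0.73, 0.0369). With prior RANK-Fc the averaged difference was 0.12 ± 0.19 (limma, adjusted p = 0.820). Against the controls it was 0.38 ± 0.26 with prior RANK-Fc alone (adjusted p = 0.844), the sign of Nr4a1, and -0.12 ± 0.27 with prior and current RANK-Fc (limma, adjusted p = 0.929).

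Egr2, known for its part in myelination and in limiting T cell activation, showed the opposite sign to Nr4a1 under prior RANK-Fc. It was at 8.67 and 8.13 in passage 1 controls, at 8.87, 8.13 and 8.25 with RANK-Fc there and at 8.77 and 8.25 in passage 2 controls. It was at 8.46, 8.51 and 8.82 with current, at 8.34, 8.29 and 8.39 with prior, and at 7.98, 8.03 and 8.18 with prior and current RANK-Fc. This last group lay below every other passage 2 tumour. Without overlap, 8.88% of all genes lay lower in it than in the controls, and Egr2 was the member among them.

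None of the Egr2 differences passed the adjusted test. Averaged over both backgrounds the difference with prior RANK-Fc was -0.43 ± 0.14 (unadjusted p = 0.00854, limma adjusted p = 0.171). Between prior and current RANK-Fc and current RANK-Fc alone it was -0.62 ± 0.18 (unadjusted p = 0.00454, limma adjusted p = 0.132), where 16.8% of all genes had an unadjusted p under 0.05. The exact permutation test over the 11 passage 2 tumours, not adjusted over the tested genes, gave -0.36 (p = 0.0195). The passage difference was 0.14 ± 0.15 (limma, adjusted p = 0.587).

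Ier2, a small nuclear protein induced with the other genes, was nearly level across the groups, with means from 8.57 to 8.75. It was at 8.28 and 9.05 in passage 1 controls and at 8.64, 8.58 and 8.52 with RANK-Fc there. It was at 8.73 and 8.42 in passage 2 controls, at 8.84, 8.69 and 8.24 with current, at 8.78, 8.52 and 8.96 with prior, and at 8.94, 8.81 and 8.08 with prior and current RANK-Fc. The groups next to each other in the order of means overlapped. Its differences were 0.04 ± 0.18 with prior RANK-Fc and -0.02 ± 0.19 by passage.

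Counted over the 9 genes tested, prior RANK-Fc averaged over both backgrounds gave 5 higher and 4 lower values, a median log2 difference of 0.04 against -0.005 over all genes, and 1 gene that passed, Nr4a1, where 0.368% of all genes did. The averaged passage comparison gave 4 higher and 5 lower values, a median of -0.024 against -0.002 over all genes, and 2 genes that passed, Nr4a1 and Nr4a2, where 12.0% of all genes did. At an unadjusted p under 0.05, 7.66% of all genes differed between prior RANK-Fc and control, with Nr4a1 alone among the 9. The tested genes thus had values on both sides of 0 in both comparisons.

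**Figure D2:**
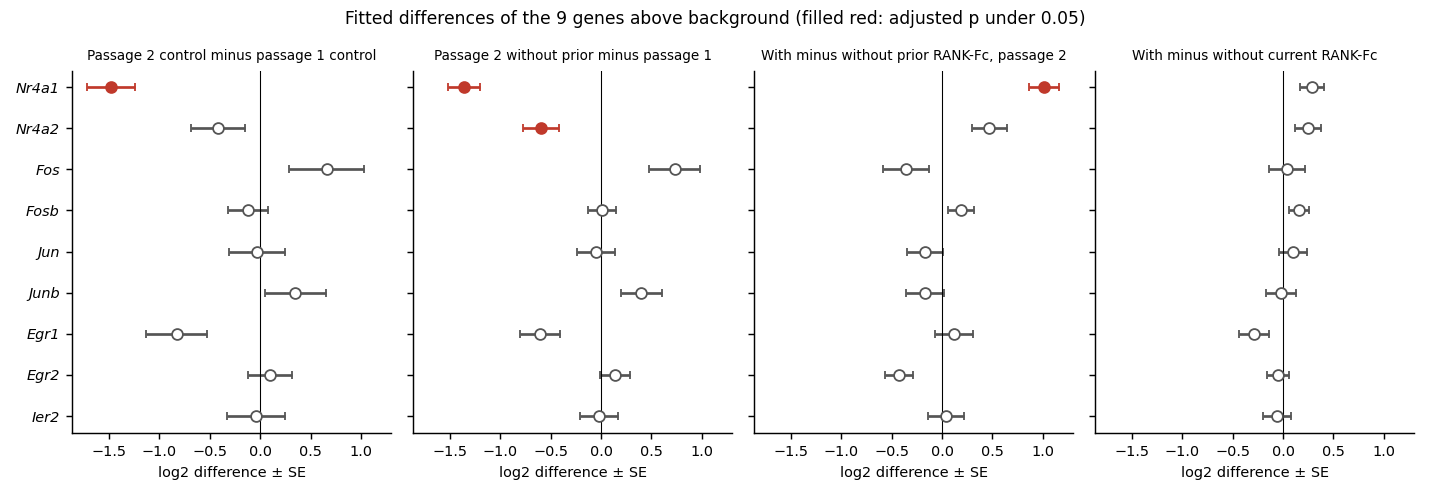
Log2 difference (x axis) with its SE (bar) for the 9 tested genes (y axis) in 4 comparisons, one per panel, with filled red points where the limma adjusted p is under 0.05. Nr4a1 is at 1.01 with prior RANK-Fc and at -1.36 by passage, Nr4a2 follows at 0.47 and -0.60, and the other genes lie on both sides of 0; the prior and passage panels share 5 tumours.

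Whether Nr4a1 moved apart from the FOS, JUN and EGR genes was described by subtracting each gene's fitted difference from that of Nr4a1 in the same tumours. With prior RANK-Fc, Nr4a1 exceeded Fos by 1.37 ± 0.26 (log2, SE), Jun by 1.18 ± 0.31 and Junb by 1.18 ± 0.28. It exceeded Egr2 by 1.44 ± 0.18, Egr1 by 0.89 ± 0.21, Fosb by 0.81 ± 0.24 and Ier2 by 0.97 ± 0.29. The smallest gap was to Nr4a2, at 0.54 ± 0.21. No p is given, since the genes were chosen with results known.

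The passage comparison, which shares 5 tumours with the former, gave gaps of the opposite sign. Nr4a1 fell short of Fos by a difference of -2.08 ± 0.27, of Junb by -1.76 ± 0.29, of Egr2 by -1.50 ± 0.19 and of Jun by -1.31 ± 0.32. The smallest gaps were to Egr1 (-0.75 ± 0.22) and Nr4a2 (-0.75 ± 0.22). The mean of Fos, Fosb, Jun, Junb, Egr1 and Egr2 stayed between 9.17 and 9.80 in the 16 tumours. That mean differed by -0.14 ± 0.12 with prior RANK-Fc, by 0.10 ± 0.13 between passages and by -0.01 ± 0.098 with current RANK-Fc. Nr4a1 exceeded it by 1.14 ± 0.19 in the first comparison and fell short by -1.46 ± 0.20 in the passage comparison.

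**Figure D3:**
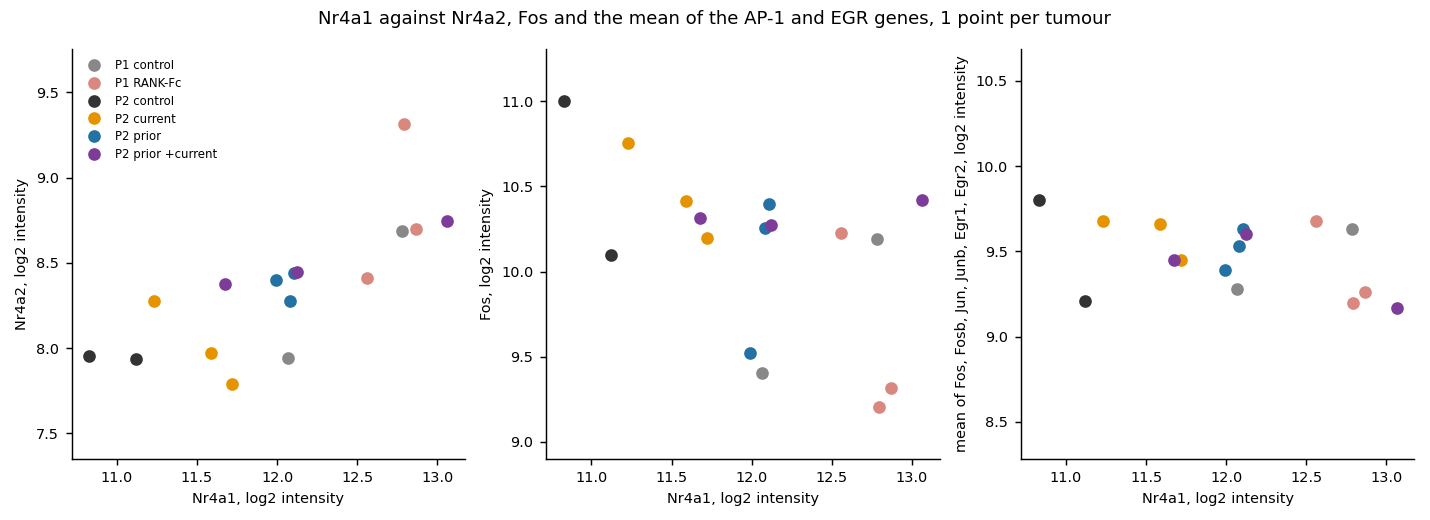
Log2 intensity of Nr4a1 (x axis) against Nr4a2, Fos and the mean of Fos, Fosb, Jun, Junb, Egr1 and Egr2 (y axes, one panel each), with a point per tumour coloured by group. Nr4a2 climbs with Nr4a1 (Pearson r 0.761, n = 16), Fos tends downward (r -0.532) and the mean of 6 stays between 9.17 and 9.80.

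Across the 16 tumours, Nr4a1 was correlated with each of the 8 other tested genes, and p-values were adjusted over the 8 pairs. With Nr4a2, Pearson's r was 0.761 (permutation p = 0.00044, adjusted 0.00352) and Spearman's rho 0.838 (permutation p = 9e-05, adjusted 0.00072), and r was 0.731 without the 2 tumours farthest from the median. That was the only pair that passed. In the 11 passage 2 tumours alone, r with Nr4a2 was 0.767 (permutation p = 0.00533, adjusted 0.0426), rho was 0.764 (permutation p = 0.0087, adjusted 0.0696), and r was 0.556 without the 2 farthest. After the group means were removed it was 0.428 (exact permutation p = 0.191, adjusted 0.765), and that value did not pass. Within the 8 Cy5 channels r was 0.533 (exact permutation p = 0.161, adjusted 0.614) and within the 8 Cy3 channels 0.860 (exact permutation p = 0.00776, adjusted 0.0621).

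Nr4a1 with Fos gave r = -0.532 (permutation p = 0.0337, adjusted 0.0898), rho = -0.385 (permutation p = 0.14, adjusted 0.281) and r = -0.557 without the 2 farthest tumours. Removing group means brought r with Fos to -0.00769 (exact permutation p = 0.976). With Junb r was -0.565 (permutation p = 0.0237, adjusted 0.0898), rho -0.491 (permutation p = 0.0569, adjusted 0.228) and r without the 2 farthest -0.450. With Jun r was -0.238 (permutation p = 0.38), with Egr1 0.355 (p = 0.175), with Egr2 -0.341 (p = 0.193), with Ier2 -0.154 (p = 0.567) and with Fosb -0.0434 (p = 0.873), all by permutation. For Jun and Ier2 the sign turned without the 2 farthest tumours (0.346 and 0.147). The r with Egr1 became 0.692 without them, and in the passage 2 tumours alone it went from 0.0949 (permutation p = 0.787) to 0.736, so its size rested on those tumours. Both tumours of an array share its hybridisation, so the 16 points are not wholly independent.

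Among the others, as a description, Junb had the clearest positive correlations, with Ier2, Fos and Jun. Over the 16 tumours r was 0.72 between Junb and Ier2, 0.667 between Jun and Ier2, 0.639 between Fos and Junb and 0.493 between Jun and Junb. With group means removed these were 0.898, 0.764, 0.48 and 0.712. Replicate 3 of the prior and current group had the lowest Jun (12.00) and Ier2 (8.08) values and the lowest Junb value of passage 2 (7.01). The r between these genes was not recomputed without that tumour. Fos had lower values with Jun (0.103, and 0.412 with group means removed) and Ier2 (0.228 and 0.379). Fos and Egr1 had an r of -0.113 over all tumours and 0.633 with group means removed. Nr4a1 and Jun had an r of -0.699 within groups (exact permutation p = 0.077, adjusted 0.616), and of -0.435 without the 2 tumours farthest from the median.

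**Figure D4:**
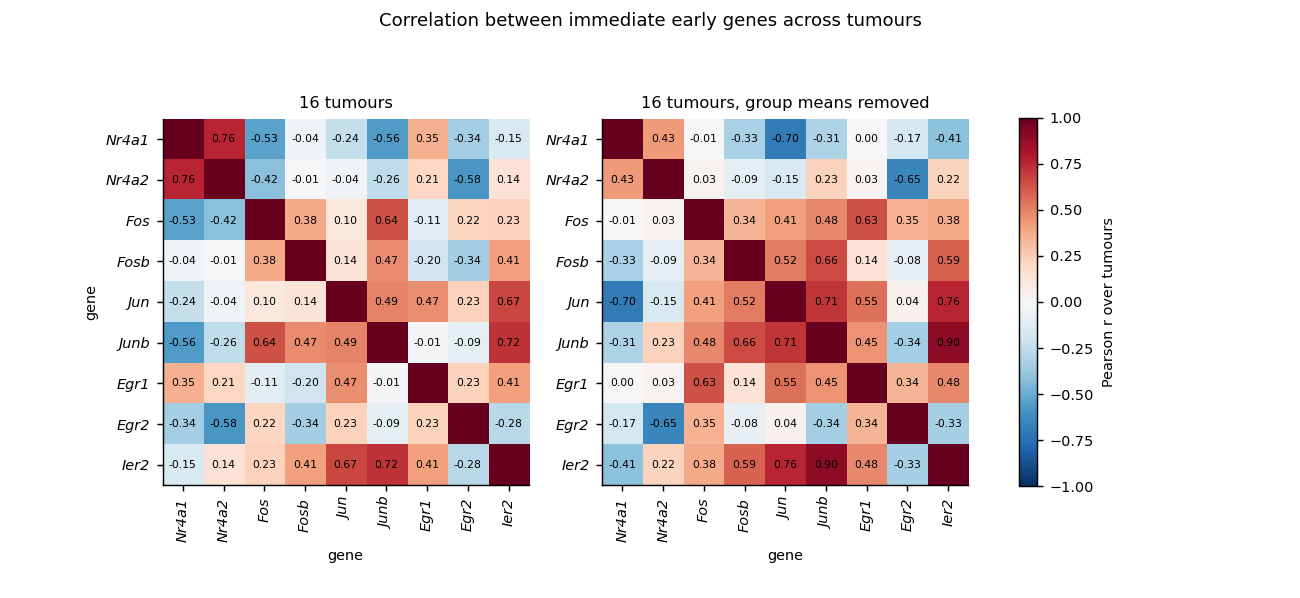
Pearson r between each pair of the 9 tested genes (both axes) over the 16 tumours (left) and after removing group means (right), with colour running from negative to positive r. Nr4a1 and Nr4a2 reach 0.761 on the left, and Junb and Ier2 0.72 on the left and 0.898 on the right.

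The wider set of immediate early genes gave a setting for these values. Of 47 others listed, 42 passed the filter, and Fosl1, Egr3, Egr4, Npas4 and Spry4 did not. With prior RANK-Fc, averaged over both backgrounds, limma called 0 of the 42 (4 higher and 2 lower at an unadjusted p under 0.05), and their median difference was -0.041. Over all genes, 15.6% had an unadjusted p under 0.05 there. The highest values were 0.56 for Dusp6, an ERK phosphatase (adjusted p = 0.173), 0.43 for Arc (adjusted p = 0.248) and 0.33 for Plk2 (limma, adjusted p = 0.293). The lowest were -0.54 for the kinase gene Pim1 (adjusted p = 0.202), -0.48 for Dusp2 (adjusted p = 0.497) and -0.48 for Gadd45g (limma, adjusted p = 0.300).

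Between passages, limma called 8 higher and 5 lower of the 42 in passage 2 without prior RANK-Fc, with a median of 0.089, in a comparison where 12.0% of all genes were called. Of 13 tested transcription factor genes 4 rose and 0 fell, and of 14 listed as feedback inhibitors 0 rose and 4 fell. Of 15 other induced genes 4 rose and 1 fell. Over all genes, more were called lower than higher in this comparison. The difference between these roles was not tested, and the lists were chosen with earlier results of these data known. No split by role is therefore read from these counts. The genes listed as feedback inhibitors that fell in limma were Dusp6 (-1.25 ± 0.19, adjusted p = 0.00138), Btg1, an antiproliferative gene (-0.77 ± 0.12, adjusted p = 0.00199), the pseudokinase gene Trib1 (-0.76 ± 0.12, adjusted p = 0.00147) and Spry2, an inhibitor of receptor tyrosine kinase signalling (-0.46 ± 0.099, adjusted p = 0.0103). Whether each acts as a feedback inhibitor in these tumours was not tested. Ptgs2, encoding the prostaglandin synthase COX-2, was also called lower (limma, adjusted p = 0.0340). It was well above background in all 5 passage 1 tumours, in 2 of 3 with current RANK-Fc and in 0 of 2 passage 2 controls, so the size of its difference is not given. Dusp6 ran from 12.92 to 13.83 in passage 1 (median 13.29), from 11.88 to 12.52 in passage 2 without prior RANK-Fc (median 12.02) and from 11.98 to 13.31 with it (median 12.62). For Dusp6, passage 1 thus lay above passage 2 without prior treatment with no overlap, as for Nr4a1 and for 8.25% of all genes. Dusp6 is described here because it was called in this same comparison.

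The transcription factor genes that rose were Myc (0.81 ± 0.12, adjusted p = 0.00137), Atf3, a stress-induced factor of the ATF family (0.84 ± 0.13, adjusted p = 0.00181), Maff (0.76 ± 0.15, adjusted p = 0.00543) and Nfil3 (0.69 ± 0.19; limma, adjusted p = 0.0347). The other genes that rose were Gadd45g, a growth arrest gene (1.04 ± 0.22, adjusted p = 0.0100), Pim1 (0.82 ± 0.20, adjusted p = 0.0181), Ier5 (0.59 ± 0.16, adjusted p = 0.0341) and Plk3 (0.44 ± 0.10; limma, adjusted p = 0.0143). Atf3 lay between 8.51 and 8.88 in passage 1 and between 9.27 and 10.11 in passage 2 without prior RANK-Fc, and had a median of 9.47 with it. Myc lay between 9.45 and 10.02, between 10.36 and 10.95, and between 10.08 and 11.08 in the same sets. In both genes every passage 2 tumour, with or without prior treatment, was above every passage 1 tumour. The same held for Maff and Gadd45g. For Gadd45g the highest passage 1 value was 11.36 and the lowest passage 2 value 11.38. The share of all genes with this separation was not counted. These genes were already called in the passage comparison, where 5.65% of all genes lay higher without overlap in passage 2 without prior RANK-Fc.

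Between the controls of the 2 passages alone, Myc rose (0.75 ± 0.19, adjusted p = 0.0486) and Dusp6, Btg1, Trib1 and Spry2 fell (limma, adjusted p from 0.0211 to 0.0440), with a median over the 42 of 0.005. Over all genes, 3.31% were called in that comparison. Current RANK-Fc averaged over its backgrounds gave 0 calls in limma (2 higher and 1 lower unadjusted) and a median of -0.026. Its highest values were 0.31 for Gadd45g and 0.26 for Nfil3, and its lowest -0.27 for Gadd45a and -0.17 for Fosl2. The interaction gave 0 calls (3 higher and 8 lower unadjusted), from -1.29 for Gadd45b and -0.91 for Ccn1 to 0.66 for Per1 and 0.82 for Sik1. The unadjusted counts of all genes for the averaged current RANK-Fc comparison and the interaction are given above with Nr4a1.

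**Figure D5:**
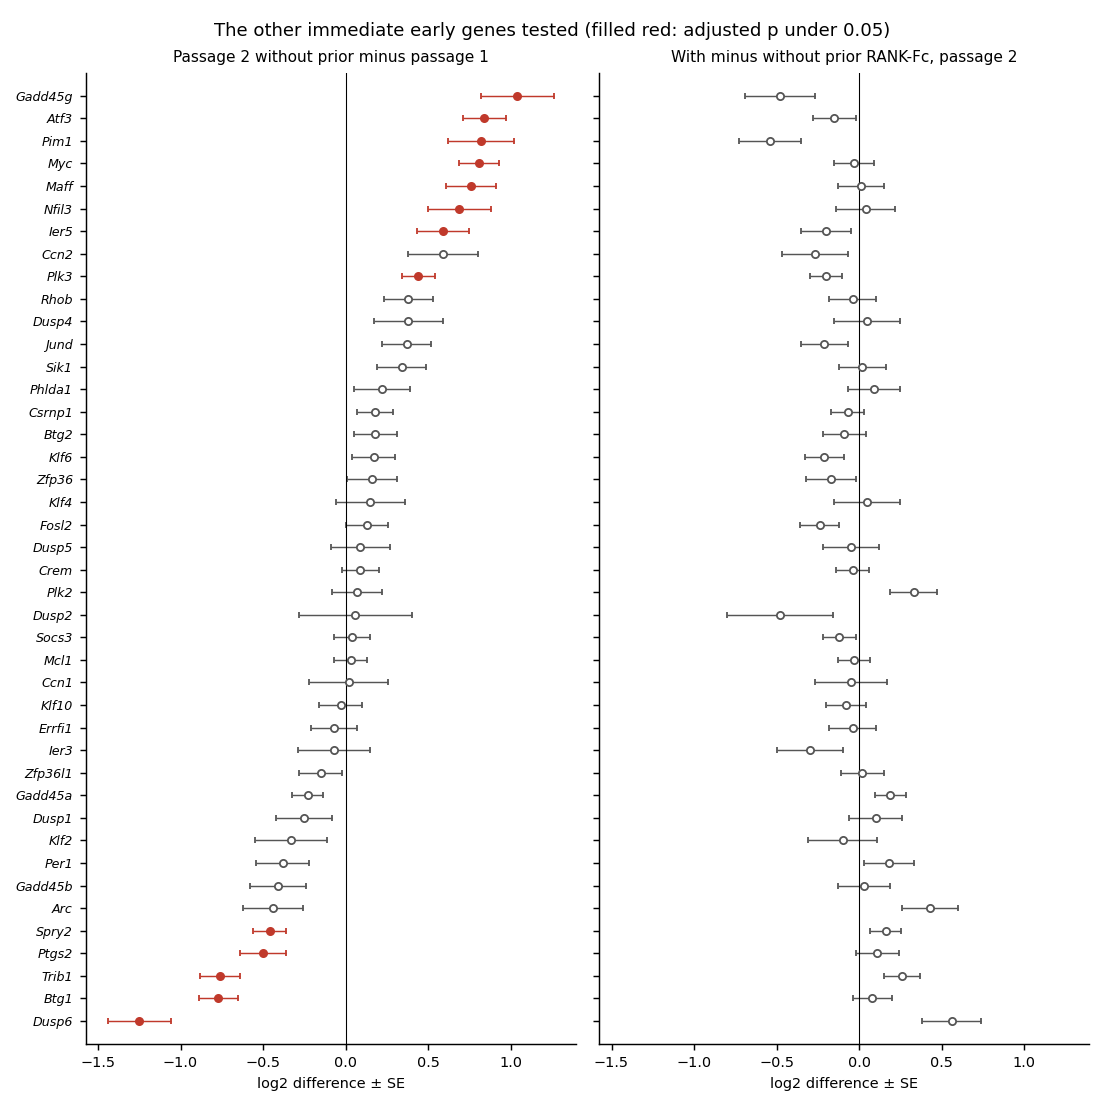
Log2 difference (x axis) with its SE (bar) of 42 other immediate early genes (y axis) for passage 2 without prior RANK-Fc against passage 1 (left) and for prior RANK-Fc averaged over both backgrounds (right), filled where the limma adjusted p is under 0.05. On the left 8 genes rise and 5 fall, from Gadd45g at 1.04 to Dusp6 at -1.25, on the right none passes, and the panels share 5 tumours.

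The kinases and factors that act upstream of immediate early genes, 20 of 20 tested, gave 0 calls with prior RANK-Fc (0 higher and 2 lower unadjusted, median -0.022). Between passages 3 of 20 were called, where 12.0% of all genes were, so the count says nothing particular to the list. They are named here after their values were seen. The MEK1 gene Map2k1 rose (0.49 ± 0.11, adjusted p = 0.0127), while the CREB coactivator gene Crtc1 (-0.48 ± 0.13, adjusted p = 0.0260) and the SRF coactivator gene Mrtfb (-0.39 ± 0.089; limma, adjusted p = 0.0136) fell. Of 7 genes for NR4A partners and co-regulators, 0 were called with prior RANK-Fc and 1 by passage, Rxra, which encodes the heterodimer partner of NUR77 and NURR1 (0.38 ± 0.094; limma, adjusted p = 0.0204), also named after its value was seen, against the same 12.0% of all genes. Of 10 heat shock and handling stress genes 9 were tested and limma called 0 in either comparison (1 higher and 0 lower unadjusted with prior RANK-Fc, 1 and 1 by passage), with medians of 0.046 and 0.137. Their part in the result was not tested.

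By Pearson r over the 16 tumours, the 5 genes most like Nr4a1 were Ptprg, a receptor tyrosine phosphatase gene (0.953), Chn2, a GTPase-activating protein gene for RAC (0.942), Mrps7, of the mitochondrial ribosome (0.939), Perp, of desmosomes (0.936), and Aqp5, a water channel gene (0.922). With group means removed r was 0.961, 0.753, 0.88, 0.813 and 0.826. Chn2 ran from 10.71 to 11.51 in passage 1, from 8.62 to 9.61 in passage 2 without prior RANK-Fc and from 9.99 to 12.02 with it. Aqp5 ran from 14.67 to 15.16, from 13.01 to 13.96 and from 13.73 to 14.63 in the same sets. Both thus had the passage pattern of Nr4a1 without overlap, and Chn2 also separated the passage 2 tumours by prior treatment. This follows from their choice, since they were picked for likeness to Nr4a1 over these same tumours. Of all genes, 8.25% lay lower without overlap in passage 2 without prior RANK-Fc than in passage 1. The 5 genes most like Fos were Nol9 (0.853), BC025920 (0.839), Pnpla7 (0.837), Gatc (0.836) and G6pd2 (0.835).

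Marker lists of other cells were set beside Nr4a1. Differences of these lists with prior RANK-Fc are averaged over both backgrounds unless stated. Over all genes, 15.6% had an unadjusted p under 0.05 in that averaged comparison and 26.6% by passage. The 9 T and NK cell markers that passed (of 12 listed; Ncr1 and Klrb1c were not well above background and Trac had no probe) were all lower with prior RANK-Fc, with 5 at an unadjusted p under 0.05, 0 called by limma and a median of -0.614. Their summed log2 level ran from 11.97 to 12.52 in the passage 2 controls, from 11.67 to 12.93 with current, from 11.41 to 12.00 with prior and from 11.46 to 11.88 with prior and current RANK-Fc. In passage 1 it ran from 11.72 to 12.50 in controls and from 11.51 to 11.99 with RANK-Fc. The 9 macrophage markers were likewise all lower with prior RANK-Fc averaged over both backgrounds (median -0.528, 5 unadjusted, 0 called by limma). With prior RANK-Fc alone against control, C1qa (0.04 ± 0.32) and C1qb (0.09 ± 0.23) were not lower, and the other macrophage markers were. Their sums were 14.50 to 14.94, 14.24 to 15.28, 14.40 to 14.85 and 13.94 to 14.57 in the 4 passage 2 groups in the same order. Across the 16 tumours the T and NK cell list had an r of -0.569 with Nr4a1 and 0.231 with Fos.

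The fibroblast list was lower in passage 2 without prior RANK-Fc than in passage 1 in 8 of 9 markers (4 unadjusted, 0 called by limma, median -0.925). Its sums ran from 15.71 to 16.29 in the 5 passage 1 tumours and from 14.28 to 17.47 in passage 2. The adipocyte list was lower in 7 of 7 tested markers (5 unadjusted, 0 called by limma, median -1.204). The r of the fibroblast list was 0.419 with Nr4a1 and -0.511 with Fos. The 7 neutrophil markers were represented by 3, since Cxcr2, Retnlg and Mmp9 were dim and Ly6g had no probe. Of these, S100a8 was called higher in the same passage comparison (1.88 ± 0.43, limma adjusted p = 0.015). The signs of S100a9 (-0.19 ± 0.52) and Csf3r (-0.09 ± 0.076) were opposite, and neither was called. Of the basal cell markers only Krt17 was called, also higher (1.27 ± 0.31, limma adjusted p = 0.0196). The other basal markers lay on both sides of 0, with Krt14 at 0.34, Trp63 at 0.16, Acta2 at 0.02, Myh11 at -0.26 and Krt5 at -0.55. S100a8 and Krt17 are named after their values were seen, and 12.0% of all genes were called there. Which cells held the Nr4a1 RNA was not measured, and the part of these cell types in the result was not tested.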

How the data were processed

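RNA from 16 tumours was hybridised to 8 two-colour Agilent arrays with no common reference, a tumour per channel. The deposited scanner files came from Agilent Feature Extraction 10.7.3.1, per the submitters' processing notes, and hold median foreground and background intensities in red (Cy5) and green (Cy3) and a log10 ratio of red over green, per the file headers. The deposited normalised table was not used beyond its headers, because 8 of its columns could not be mapped to a sample. Probes were named through RefSeq accessions, and 28026 of 55681 non-control probes got a symbol.

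Intensities were background corrected (normexp, offset 50), loess normalised within arrays and scaled between arrays by quantiles of the average intensity, and log2 values of each channel were used. Control spots and spots marked uneven or outlier were left out (239 to 337 per array, 6 genes lost), and the brightest passing probe stood for a gene (25.7% of genes had several). A fit of 6 group means and dye to both channels (limma 3.58.1 in R 4.3.3, statmod 1.5.0) gave 11 comparisons, with Benjamini-Hochberg adjustment over 14125 genes and a threshold of 0.05. Its intraspot correlation of 0.416 was corrected to 0.222 from simulated data, on which the fit was also tested. Exact tests by prior RANK-Fc were computed in R. Correlations and their permutations (100000 draws, or all orders for 8 or fewer values and within groups) used numpy 2.4.6, with ranks from scipy 1.17.1. All arrays shared 1 slide and 1 scan time. The label codes give each tumour an animal of its own.

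Named were all members, other immediate early genes past the threshold or at the extremes of a comparison (3 each way for prior RANK-Fc averaged, 2 elsewhere), and the 5 genes most like Nr4a1 and Fos. Members and lists were chosen with earlier results of these data known. Promoter windows came from RefSeq (GRCm38.p6).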

Additional observations from a re-analysis of the deposited data

How the results depend on the processing

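Leaving out tumours in turn and changing background correction, scaling, filter, probe, dye term, correlation and the tumours fitted turned the sign of no called member difference. The Nr4a1 difference between passage controls lost its call with no dye term (-1.48, adjusted p = 0.0515) and with log ratios alone (-1.62, 0.392), and ran from -1.67 to -1.28 with a tumour left out. With prior RANK-Fc averaged it lost its call with no dye term (0.86, 0.194), log ratios alone (0.88, 0.521) and the groups compared alone (1.00, 0.106), and ran from 0.85 to 1.16 with a tumour left out. The averaged passage difference lost it with log ratios alone (-1.46, 0.155) and ran from -1.45 to -1.25. Log ratios alone use only contrasts within arrays, and the cause of the other losses was not tested.

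Counts of members past the threshold moved accordingly. For prior and current RANK-Fc against control the count went from 0 to 1 (Nr4a1) under quantile normalisation over channels, a filter on all channels, an uncorrected intraspot correlation and channels as independent samples, and was 0 to 1 with a tumour left out. Against current RANK-Fc alone it went from 0 to 1 with the uncorrected correlation and was 0 to 1 with a tumour left out. Between passage controls it went from 1 to 0 with no dye term and log ratios alone (0 to 1 with a tumour left out), and with prior RANK-Fc averaged to 0 under these and with the groups alone (0 to 1). The averaged passage count of 2 became 1 with Feature Extraction processed signals, no filter, the other Nr4a2 probe, no dye term and the groups alone, 0 with log ratios alone, and 1 to 3 with a tumour left out. The permutation difference of Nr4a1 was 1.09 and 0.77 within the backgrounds, too small to test, and the count of correlated pairs went from 1 to 0 in Cy5 alone, Cy3 alone and with group means removed. Median centring moved the median of all genes to 0.104 for prior RANK-Fc against control, where Nr4a1 was 1.25. Of 1981 recomputed values of the other 96 member differences, 1904 counted as unchanged. These kept a call with its sign, or were uncalled and moved by less than the SD within groups. Another 50 uncalled values moved by more, 14 gained and 13 lost a call, and 0 called values reversed. The direction of uncalled values was not checked. No paired analysis was possible because replicate numbers follow sample order. A slide or scan block could not be fitted. Groups of 2 and 3 tumours and the signal over background, as for Nr4a3, limit what could be detected.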
